A study of Mus musculus with 23 samples.

Results

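The 9 genes Pik3ca, Pik3cb, Akt1, Akt2, Mtor, Rptor, Rictor, Tsc2 and Rps6kb1, which encode the core of the PI3K, AKT and mTOR pathway, were followed in 23 mouse melanoma tumors. They were chosen by name from the 56748 genes of the count table, with earlier results of these data known. All 9 of 9 passed the filter on low counts in both fits. Tumors were grown under the skin of DBA/2J mice aged 6 to 8 weeks from B16-F1, a mouse melanoma line that derives from C57BL/6, a strain other than that of the host. The mice received pentoxifylline (PTX, 60 mg/kg), a phosphodiesterase inhibitor, norcantharidin (NCTD, 3 mg/kg), a demethylated analog of cantharidin known to inhibit protein phosphatases, or both at those doses (MIX). By the intraperitoneal (IP) route the control was saline, with 2 tumors in each of CTRL_IP, PTX_IP, NCTD_IP and MIX_IP. By the intratumoral (IT) route the control was DMSO, with 4 tumors in CTRL_IT, 3 in PTX_IT, 4 in NCTD_IT and 4 in MIX_IT. The labels name the route as the batch, so route, solvent and batch cannot be told apart. The labels name no transgene, and they give neither the sex of each mouse nor a pooling of animals. The study also examined PI3K, AKT1 and mTOR as proteins; the values here are mRNA alone.

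In this pathway, growth factor receptors recruit PI3K, which makes a membrane lipid that draws AKT kinases to the membrane, where they are activated. AKT restrains the TSC complex, whose TSC2 subunit holds back the small GTPase RHEB, and so releases mTOR. The mTOR kinase works in mTORC1, built around RAPTOR, which drives translation through S6 kinase and 4E-BP1, and in mTORC2, built around RICTOR, which phosphorylates AKT. In melanoma the pathway acts beside the MAPK pathway in growth and survival.

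Depth ranged from 2861578 to 6702374 counts per tumor with a median of 4013068, so that 3 counts, the floor used here, corresponded to 0.448 to 1.05 CPM (counts scaled to equal library size). The lowest count of any of the 9 genes in any tumor was 38, for Tsc2. All 7 melanocytic markers were present in every tumor, with Dct at 7368 to 20131 CPM, as the labelled tumor type requires. The median Spearman correlation of a tumor with the others was lowest for MIX_IT 23 (0.891) and NCTD_IT 18 (0.919). Xist, the female-specific noncoding RNA, reached 5.19 to 13.6 CPM in NCTD_IT and at most 0.566 CPM in CTRL_IT. Ddx3y, on the Y chromosome, was at 1.03 to 8.98 CPM in CTRL_IT and at most 0.294 CPM in NCTD_IT, which goes against the study's statement that groups were sex-matched. PTX_IT lay at 1.28 to 11.6 CPM of Xist, MIX_IT at 0, and of the IP tumors CTRL_IP 2 alone held Xist, at 8.26 CPM. In bulk tumors, fewer cells of a type and less RNA per cell cannot be told apart, and libraries made from the 3′ end do not measure the kinases' activity.

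The genes' levels came in a steep order. Per kilobase of the gene length listed with the counts, Akt1 was at 176 ± 55.4 CPM per kb (SD, n = 23), far above Pik3ca at 9.80 ± 1.19, Rps6kb1 at 8.24 ± 1.21 and Akt2 at 7.70 ± 2.09. Rictor followed at 3.71 ± 0.801, and then Mtor at 2.83 ± 0.515, Pik3cb at 2.78 ± 0.691, Tsc2 at 2.14 ± 0.541 and Rptor at 1.75 ± 0.222 CPM per kb. Rps6kb1 and Akt2, and each neighboring pair from Mtor down to Rptor, differed by less than the larger of their SDs. The per-kilobase scale is a convention here, because 3′ libraries give about the same number of reads for a short and a long transcript. In CPM, without length, the order was Akt1, Pik3ca, Rps6kb1, Rictor, Akt2, Mtor, Rptor, Tsc2 and Pik3cb. The genes also differed in how much they varied: the highest tumor exceeded the lowest by 4.16 times for Akt1 and 3.41 times for Tsc2, but by 1.57 times for Rptor and 1.65 times for Pik3ca.

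**Figure D1:**
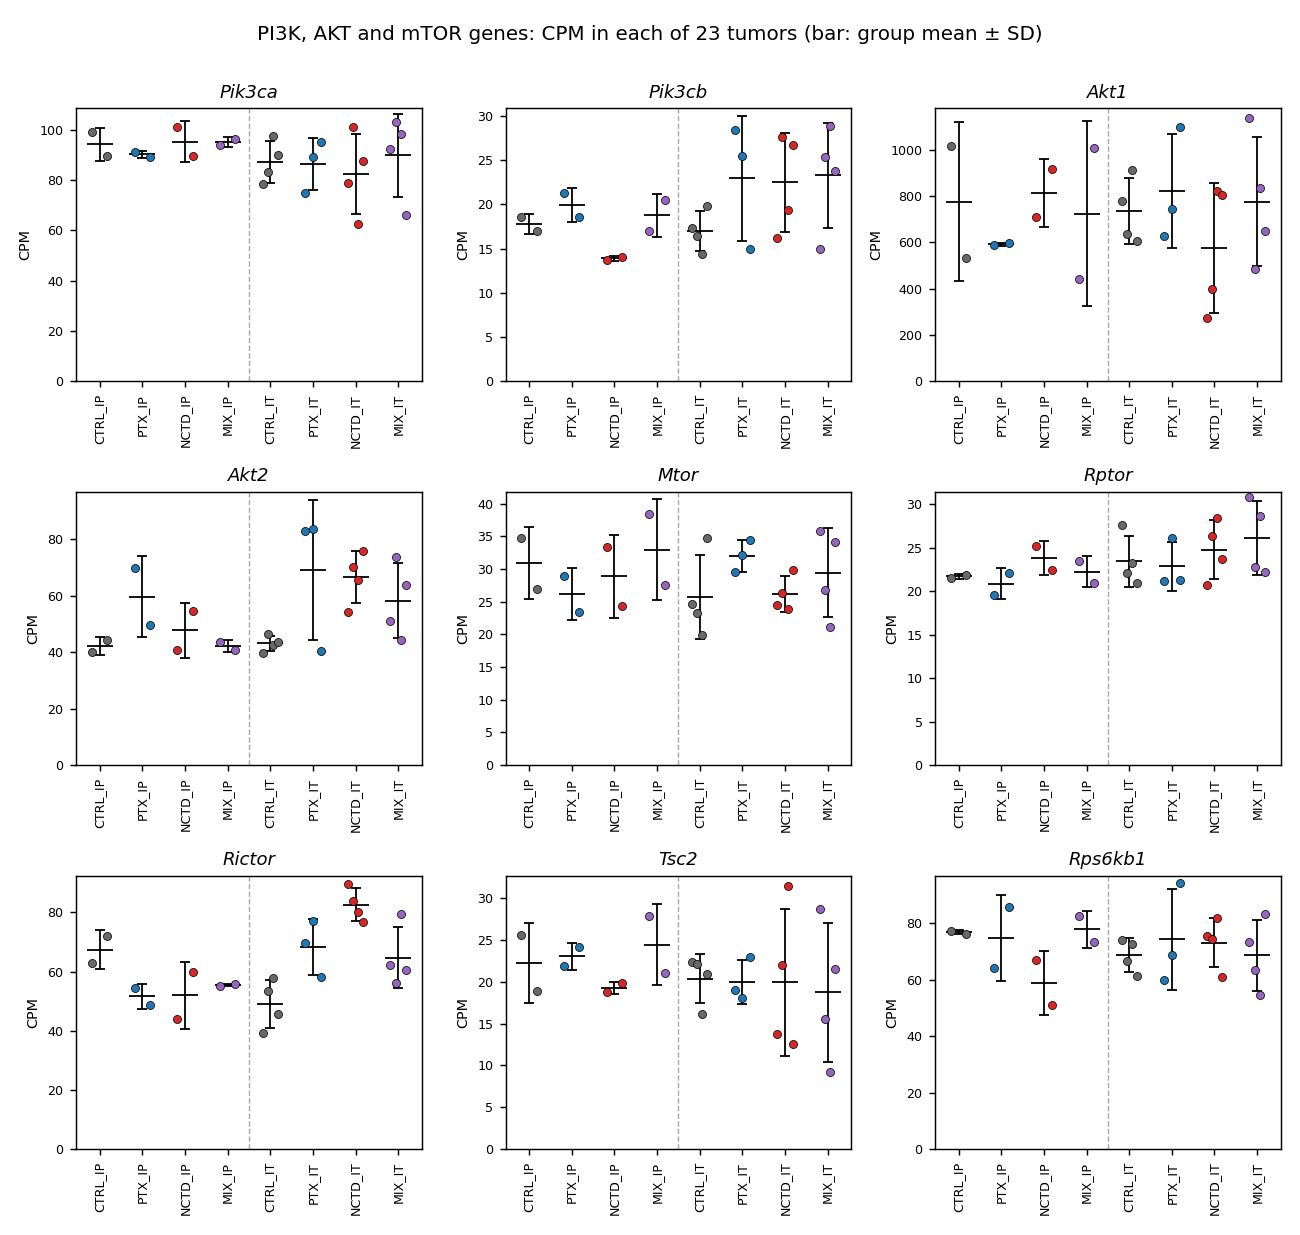
Level of each gene in CPM (vertical axis, from 0) in every tumor, by group (horizontal axis, IP groups left of the dashed line, IT groups right); points are tumors and bars are the group mean ± SD. Rictor lies at 76.8 to 89.7 CPM in the 4 NCTD_IT tumors and at 39.1 to 57.7 CPM in the 4 CTRL_IT tumors.

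The promoters of 3 members are shown: that of Rictor, the gene that passed the test, and those of the paralogs Akt1 and Akt2, which are compared with each other within each tumor. Each runs from 250 bases before to 50 after the start of the canonical GENCODE transcript on GRCm39, 5′ to 3′ on the strand of the gene, and capitals mark motif matches. Rictor lies on the plus strand at chr15:6737612-6737911, Akt1 on the minus strand at chr12:112641199-112641498 and Akt2 on the plus strand at chr7:27290689-27290988.
Rictor: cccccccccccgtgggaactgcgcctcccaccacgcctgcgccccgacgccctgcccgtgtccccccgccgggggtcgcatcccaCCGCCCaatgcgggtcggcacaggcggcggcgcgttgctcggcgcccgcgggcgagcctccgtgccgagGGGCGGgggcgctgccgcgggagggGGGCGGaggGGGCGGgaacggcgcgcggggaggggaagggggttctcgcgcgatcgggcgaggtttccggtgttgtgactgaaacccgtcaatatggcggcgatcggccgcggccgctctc
Akt1: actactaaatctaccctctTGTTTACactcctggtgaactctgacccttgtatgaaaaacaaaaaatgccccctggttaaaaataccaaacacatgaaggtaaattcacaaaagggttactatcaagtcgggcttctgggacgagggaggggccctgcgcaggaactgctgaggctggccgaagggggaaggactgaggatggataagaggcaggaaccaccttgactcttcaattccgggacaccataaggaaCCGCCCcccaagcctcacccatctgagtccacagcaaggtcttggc
Akt2: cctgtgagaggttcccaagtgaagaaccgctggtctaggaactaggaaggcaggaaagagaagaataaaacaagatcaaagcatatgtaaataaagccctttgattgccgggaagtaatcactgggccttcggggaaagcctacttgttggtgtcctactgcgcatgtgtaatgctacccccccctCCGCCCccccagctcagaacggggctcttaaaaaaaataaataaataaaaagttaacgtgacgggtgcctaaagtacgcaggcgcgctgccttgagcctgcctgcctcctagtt
The motifs searched, on both strands, were the GC box GGGCGG, the E-box CACGTG, the cyclic AMP element TGACGTCA and the FOXO motif GTAAACA, and no match overlapped another in these windows. Rictor held 4 GC boxes and 47 CpG dinucleotides, against a median of 11 CpG over all 21757 protein-coding promoters of the same length. Akt2 held 1 GC box and 11 CpG, and Akt1 held 1 GC box, 6 CpG and 1 FOXO match, at position -231 from the start. A GC box was present in 42.5% of all promoters, an E-box in 7.82%, a FOXO match in 3.15% and a cyclic AMP element in 2.45%. No E-box and no cyclic AMP element lay in the windows of the 9 genes, and among them Akt1 alone held the FOXO letters. These are letter matches, and 3′ libraries do not show which start was used.

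Rictor, the scaffold that defines mTORC2, was the only one of the 9 genes to pass the test, and it did so in NCTD_IT alone. The gene (ENSMUSG00000050310) spans 6737860 to 6829882 on chromosome 15, GRCm39, plus strand, and its canonical transcript has 38 exons. The 4 CTRL_IT tumors held 39.1, 53.5, 57.7 and 45.8 CPM, and the 4 NCTD_IT tumors 89.7, 83.7, 80.2 and 76.8 CPM. The groups did not overlap, and the lowest NCTD_IT tumor stood above the highest CTRL_IT tumor; of all genes 16.8% did not overlap in this comparison, 7.82% higher and 8.95% lower. In the fit this was a log2 fold change of 0.75 ± 0.17 (SE; 95% interval 0.39 to 1.11), or 1.68-fold, with an unadjusted p of 3.9e-04 and an adjusted p of 0.0414 (edgeR quasi-likelihood test, Benjamini-Hochberg over 12480 genes). Of all genes tested in this comparison 1.37% were called, so 1 of 9 called genes is to be read against that background. The call was lost in 7 of the 8 fits that left out 1 tumor of either group, all but that without CTRL_IT 10; over the 8 fits the adjusted p ran from 0.0489 to 0.145 and the log2 fold change from 0.65 to 0.85. With Xist added to the model as a covariate the log2 fold change was 0.54 ± 0.35 (SE) and the adjusted p 0.846. Xist did not overlap between NCTD_IT and CTRL_IT, so sex and treatment cannot be told apart here, with or without the covariate. It was at most 0.566 CPM in CTRL_IT and 0 in MIX_IT, so the covariate's slope rests mainly on differences among the PTX_IT and NCTD_IT tumors. Values with the covariate, here and below, are therefore no correction for sex.

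Rictor was also high in the other IT drug groups, but without passing. The 3 PTX_IT tumors held 69.7, 77.0 and 58.3 CPM and the 4 MIX_IT tumors 62.3, 56.3, 79.6 and 60.6 CPM. The PTX_IT tumors lay just above those of CTRL_IT, and the MIX_IT tumors overlapped them. In PTX_IT 7.96% of genes did not overlap the control (3.81% higher and 4.15% lower), and in MIX_IT 9.91% (4.93% higher and 4.98% lower), where none of the 9 genes did. The log2 fold changes were 0.47 (95% interval 0.09 to 0.86, adjusted p = 0.785) in PTX_IT and 0.39 (0.04 to 0.75, adjusted p = 0.332) in MIX_IT, by edgeR. The 3 comparisons share the CTRL_IT tumors, so they are not independent of each other. Xist did not overlap between PTX_IT, at 1.28 to 11.6 CPM, and CTRL_IT, so sex and treatment cannot be told apart in PTX_IT either. With the Xist covariate the log2 fold changes of Rictor were 0.29 ± 0.32 (SE) in PTX_IT and 0.41 ± 0.17 in MIX_IT. Their adjusted p were 0.989 and 0.233 by edgeR. The MIX_IT minus NCTD_IT difference was -0.36 (95% interval -0.71 to -0.00), with an unadjusted p of 0.0491, where 6.02% of genes were below 0.05, and an adjusted p of 0.809 in the same fit.

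By the IP route Rictor lay on the other side of its control. The CTRL_IP tumors held 62.9 and 72.0 CPM, the PTX_IP tumors 54.5 and 48.7, the NCTD_IP tumors 44.0 and 59.9, and the MIX_IP tumors 55.1 and 55.8. None of the IP drug groups overlapped the control. Of all genes 31.8% did not overlap in PTX_IP (15.7% higher, 16.1% lower), 34.3% in NCTD_IP (16.3% higher, the rest lower) and 35.9% in MIX_IP (18.9% lower, the rest higher), with 2 tumors a group. The log2 fold changes of -0.39, -0.37 and -0.27 had adjusted p of 0.906, 0.999 and 0.999, and all of their intervals included 0. The effect by IT minus the effect by IP, tested over all 23 tumors, was 1.13 for NCTD (95% interval 0.56 to 1.69, adjusted p = 0.271 by edgeR), with an unadjusted p of 4.7e-04 where 10.8% of genes were below 0.05. Of 13395 genes 0% were called in this contrast, and 0% in those for PTX and MIX. For PTX the difference was 0.86 (adjusted p = 0.892) and for MIX 0.68 (adjusted p = 0.616), where 5.23% and 7.44% of genes had an unadjusted p below 0.05. The CTRL_IP and CTRL_IT tumors themselves differed, at 67.4 ± 6.40 (SD, n = 2) and 49.0 ± 8.22 CPM (SD, n = 4).

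Some measures differed between the IT groups in the direction of Rictor, and others did not. Malat1, a nuclear noncoding RNA, was at 84.7 ± 9.57 CPM (SD, n = 4) in CTRL_IT, 477 ± 178 (n = 4) in NCTD_IT, 281 ± 153 (n = 4) in MIX_IT and 230 ± 178 (n = 3) in PTX_IT. The mitochondrial share of counts was 2.56%, 4.73%, 4.58% and 3.44% in the same order. Malat1 passed the test in NCTD_IT (log2 fold change 2.49, adjusted p = 0.0280 by edgeR). The sum of the 9 leukocyte markers ranged from 33.0 to 286 CPM in CTRL_IT and 156 to 1219 in NCTD_IT. In NCTD_IT 2 of them passed the test, S100a9 and S100a8 (log2 fold changes 6.63 and 5.60, adjusted p = 0.0363 each by edgeR). Those of Cd68, Csf1r and Cd74 were 0.68, 0.86 and 0.53 (unadjusted p of 0.233, 0.217 and 0.627 by edgeR). At an unadjusted p below 0.05 stood 4 of the 9 markers, all higher. The sum of the 6 fibroblast markers ranged from 106 to 361 CPM in CTRL_IT and 377 to 1656 in NCTD_IT. That of the 5 endothelial markers ranged from 32.4 to 58.3 and 72.6 to 137, and of these Emcn passed in NCTD_IT (log2 fold change 1.29, adjusted p = 0.0414 by edgeR). The melanocytic sum was 28602 ± 2558 CPM in CTRL_IT and 22202 ± 3668 in NCTD_IT (SD, n = 4 each). Of the 7 melanocytic markers Mitf alone passed in NCTD_IT, and it was lower (log2 fold change -0.86, adjusted p = 0.0363 by edgeR). The leukocyte sum of MIX_IT, 87.3 to 280 CPM, lay within the range of CTRL_IT, and the sum of the 4 erythroid markers was 1238 to 6944 CPM in CTRL_IT and 258 to 1360 in NCTD_IT. In MIX_IT the fibroblast sum ranged from 485 to 8542 CPM, and in PTX_IT from 249 to 798. The part of nuclear RNA, mitochondrial RNA and other cell types in the level of Rictor was not tested.

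Akt2, one of the AKT kinases and best known for its role in insulin signaling, was the only other of the 9 genes with an unadjusted p below 0.05 against a control. Its log2 fold change was below that of Rictor in NCTD_IT and above it in PTX_IT and MIX_IT, where that of Pik3cb was higher still in MIX_IT. It lies at 27290977 to 27340251 on chromosome 7, plus strand. The CTRL_IT tumors were tight, at 39.9, 46.4, 42.6 and 43.8 CPM, while NCTD_IT held 54.4, 70.2, 65.7 and 76.0 CPM. All 4 NCTD_IT tumors were above all CTRL_IT tumors, as with Rictor and with 7.82% of all genes. The log2 fold change was 0.62 (95% interval 0.16 to 1.09), and its adjusted p of 0.121 (edgeR) missed the threshold. It passed with DESeq2 on these groups (adjusted p = 0.0239) and with edgeR on these groups alone (adjusted p = 0.0326), while with the Xist covariate its sign turned, to -0.50 ± 0.37 (SE).

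In PTX_IT the value of Akt2 depended on 1 tumor and on the model: tumors 13 and 15 held 83.1 and 83.8 CPM and tumor 16 held 40.6 CPM. PTX_IT 16 also had the lowest Malat1 of its group, 74.2 CPM against 193 and 424. The log2 fold change was 0.67 (95% interval 0.17 to 1.17, adjusted p = 0.785 by edgeR), and 0.93 without tumor 16 (adjusted p = 0.125). With the Xist covariate it turned to -0.31 ± 0.33 (SE; adjusted p = 0.989). In MIX_IT the 4 tumors held 51.2, 73.8, 44.2 and 64.0 CPM, overlapping the control, with a log2 fold change of 0.43 (95% interval -0.03 to 0.89). The IP tumors spanned 40.0 to 69.8 CPM, the top value being PTX_IP 3, and no IP comparison passed. At an unadjusted p below 0.05, then, stood 2 of 9 genes in PTX_IT, 2 in NCTD_IT and 1 in MIX_IT, all higher. Of all genes 4.18% were higher and 2.16% lower at that level in PTX_IT, 11.6% and 10.0% in NCTD_IT, and 7.88% and 5.11% in MIX_IT.

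Akt1, the most abundant of the 9 genes and the AKT isoform most tied to growth and survival, was the most variable and showed no difference beyond its spread. It lies on chromosome 12 from 112620255 to 112641318, minus strand. CTRL_IT held 607 to 914 CPM, PTX_IT 625 to 1096, NCTD_IT 273 to 823 and MIX_IT 484 to 1135. In NCTD_IT the tumors fell apart, with 273 and 399 CPM in tumors 17 and 18 and 823 and 804 CPM in tumors 19 and 20, and only the first pair lay below the control range. The log2 fold change of -0.36 in NCTD_IT had a 95% interval of -1.06 to 0.34, and that of MIX_IT, 0.08, one of -0.62 to 0.78. With the Xist covariate that of NCTD_IT turned to 0.34 ± 0.69 (SE). CTRL_IP, at 1017 and 534 CPM, and MIX_IP, at 441 and 1005 CPM, were no closer, so the sign of every IP fold change of Akt1 turned when one of the CTRL_IP tumors was left out. Its biological coefficient of variation in the IT fit was 34.1%, against a median of 30.3% over all genes.

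Within each tumor, the Akt1 to Akt2 ratio can be read free of library scaling. Its log2 value was 4.27, 3.77, 4.41 and 3.77 in CTRL_IT and 2.32, 2.50, 3.63 and 3.39 in NCTD_IT, with no overlap. The mean difference was -1.09, with an exact permutation p of 0.0286 (two-sided, 70 splits), the smallest that 4 against 4 tumors allow, and an adjusted p of 0.129 over 9 ratio tests. In PTX_IT tumors 13 and 15 had ratios of 2.90 and 3.14 and tumor 16 one of 4.74, so that the mean difference of -0.46 became -1.03 without tumor 16. MIX_IT spanned 2.71 to 4.46 and differed by -0.37 on average (exact permutation p = 0.486).

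Pik3ca and Pik3cb encode catalytic subunits of class I PI3K, p110-alpha and p110-beta. Pik3ca (chromosome 3, 32451820 to 32522635, plus strand) was among the steadiest genes, at 62.6 to 103 CPM over all tumors, with group means between 82.4 and 95.5 CPM. Its log2 fold changes lay between -0.09 and 0.04 in all 6 comparisons with a control, and the widest of their intervals, in PTX_IT, ran from -0.43 to 0.39. Pik3cb (chromosome 9, 98918707 to 99022674, minus strand) varied more, from 13.7 CPM in NCTD_IP 5 to 28.9 CPM in MIX_IT 23. The CTRL_IT tumors held 14.4 to 19.8 CPM, while PTX_IT held 14.9 to 28.4 and NCTD_IT 16.2 to 27.6, and MIX_IT held 23.8, 25.4 and 28.9 CPM in 3 tumors and a level within the control range in MIX_IT 21. Each IT drug group thus had tumors inside and above the control range, with log2 fold changes of 0.43, 0.40 and 0.45 and adjusted p of 0.817, 0.388 and 0.480 by edgeR. With the Xist covariate, which is no correction for sex, those of PTX_IT and NCTD_IT turned to -0.61 ± 0.41 and -0.84 ± 0.46 (SE). The log2 ratio of Pik3ca to Pik3cb was 2.34 ± 0.27 in CTRL_IT and 1.87 ± 0.28 in NCTD_IT (SD, n = 4 each), a difference of -0.47 (exact permutation p = 0.0857, adjusted p = 0.193).

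**Figure D2:**
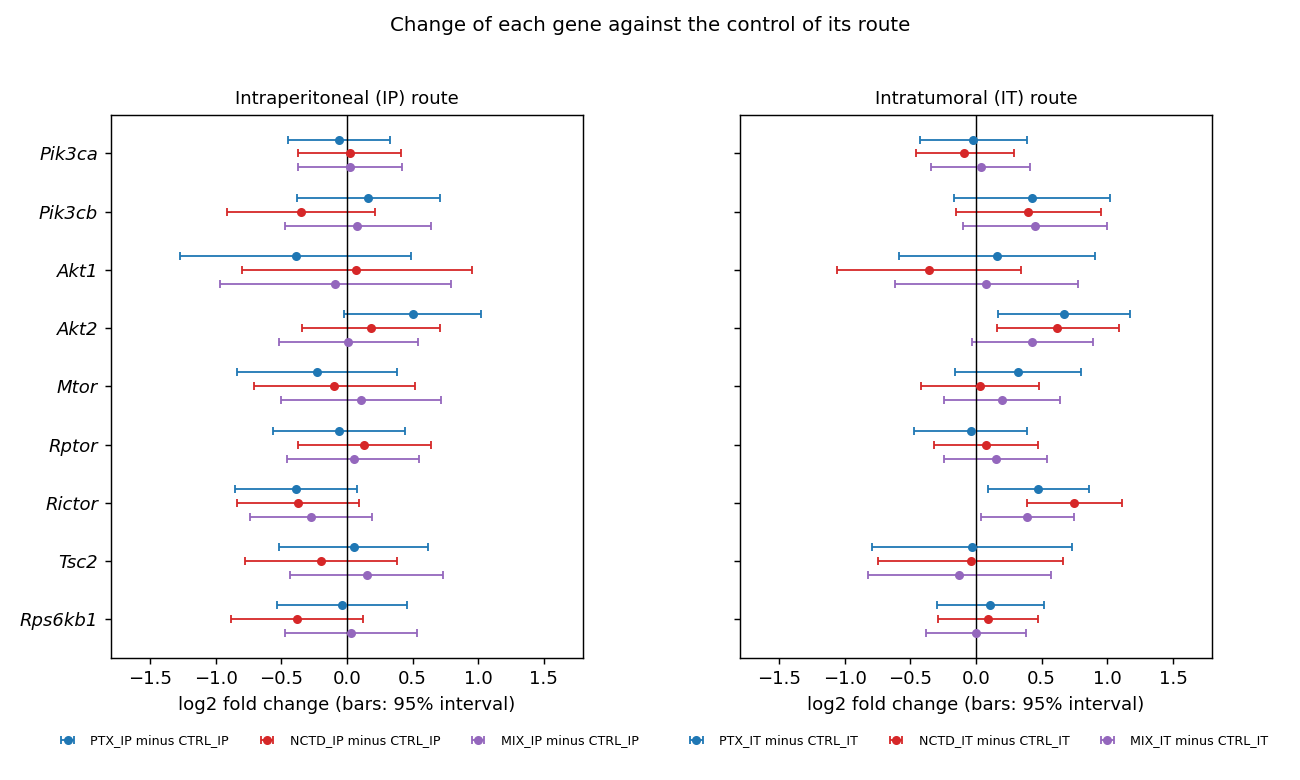
Log2 fold change of each gene against the control of its route (horizontal axis; bars are 95% intervals from the edgeR fit), with PTX in blue, NCTD in red and MIX in purple, IP on the left and IT on the right. All IP intervals include 0, and in the IT panel those of Rictor in the 3 groups and of Akt2 in PTX_IT and NCTD_IT do not.

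Mtor, the kinase of both mTOR complexes, and Rptor, the scaffold of mTORC1, were level across the groups within their spread. Mtor (chromosome 4, 148533068 to 148642140, plus strand) held 19.9 to 34.8 CPM in CTRL_IT, 29.5 to 34.4 in PTX_IT, 23.9 to 29.9 in NCTD_IT and 21.1 to 35.8 in MIX_IT. Its largest log2 fold change was 0.32, in PTX_IT, with a 95% interval of -0.16 to 0.80. Rptor (chromosome 11, 119493731 to 119790402, plus strand) stayed between 19.6 and 30.8 CPM in all 23 tumors, the narrowest range of the 9 genes. Its log2 fold changes by IT were -0.04, 0.08 and 0.15 for PTX_IT, NCTD_IT and MIX_IT, and the 95% interval in NCTD_IT was -0.32 to 0.47.

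The scaffolds of the mTOR complexes were also set against each other within each tumor, and no difference in their ratio passed after adjustment. The log2 ratio of Rptor to Rictor was -0.50, -1.26, -1.30 and -1.11 in CTRL_IT and -2.10, -1.64, -1.48 and -1.67 in NCTD_IT. The groups did not overlap, and the mean difference was -0.68 (exact permutation p = 0.0286, adjusted p = 0.129). In PTX_IT the ratios of -1.69, -1.54 and -1.43 also lay below those of the control (difference -0.51, exact permutation p = 0.0571, adjusted p = 0.171), and in MIX_IT, with a mean of -1.30 ± 0.21 (SD, n = 4), they overlapped (difference -0.26). By the IP route CTRL_IP had the lowest ratios, -1.53 and -1.70, and the IP ratios were not tested.

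**Figure D3:**
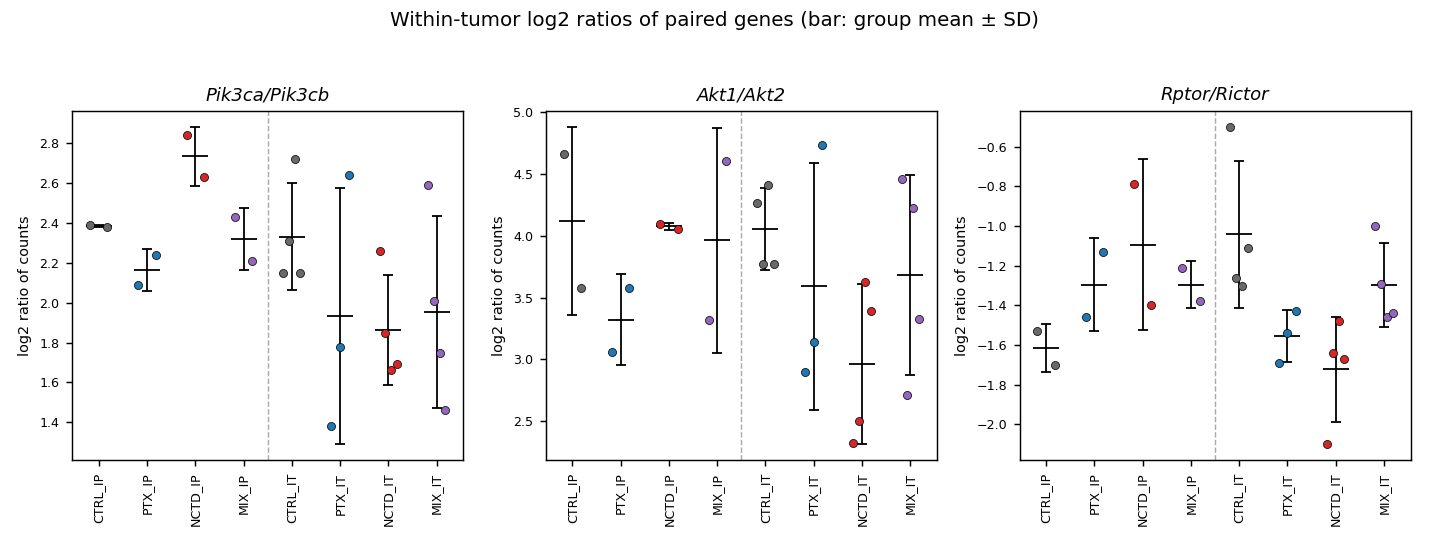
Log2 ratio of the counts of paired genes within each tumor (vertical axis) by group (horizontal axis); points are tumors and bars the group mean ± SD. The Akt1/Akt2 and Rptor/Rictor ratios of the 4 NCTD_IT tumors lie below those of all 4 CTRL_IT tumors, with mean differences of -1.09 and -0.68.

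Tsc2, the GTPase-activating subunit of the TSC complex, and Rps6kb1, which encodes S6 kinase 1, act on either side of mTORC1. Tsc2 (chromosome 17, 24814790 to 24851604, minus strand) held 16.1 to 22.4 CPM in CTRL_IT, 12.5 to 31.5 in NCTD_IT and 9.22 to 28.7 in MIX_IT. The drug-treated tumors thus spread to both sides of the control, and the log2 fold changes of -0.04 and -0.13 had 95% intervals of -0.75 to 0.66 and -0.82 to 0.57. Rps6kb1 (chromosome 11, 86389697 to 86435631, minus strand) lay at 50.9 to 94.3 CPM over all tumors. Its group means by IT were 68.7 ± 5.90 CPM in CTRL_IT (SD, n = 4), 74.3 ± 17.8 in PTX_IT (n = 3), 73.1 ± 8.74 in NCTD_IT (n = 4) and 68.7 ± 12.6 in MIX_IT (n = 4). The lowest level was in NCTD_IP, 66.9 and 50.9 CPM against 77.3 and 76.3 CPM in CTRL_IP, a log2 fold change of -0.38 (95% interval -0.88 to 0.12, adjusted p = 0.999 by edgeR). Rps6kb1 overlaps Rnft1 on the opposite strand, which had a mean count of 83.7 against 316 for Rps6kb1, and since the strand setting of the counting is not given in the sources used here, their reads may not be told apart. The other overlapping genes held at most 14 counts in any tumor.

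By the IP route, none of the 9 genes passed the test in PTX_IP, NCTD_IP or MIX_IP, and none had an unadjusted p below 0.05 (edgeR), nor did DESeq2 call any. Of all genes tested, 0% were called in the 3 comparisons, and at an unadjusted p below 0.05 the shares higher and lower were 3.00% and 2.30% in PTX_IP, 1.92% and 1.67% in NCTD_IP, and 1.39% and 1.55% in MIX_IP. The fold changes of the 9 genes lay between -0.39 and 0.50 on the log2 scale, and with 2 tumors a group their 95% intervals spanned 0.78 to 1.75 log2 units. In PTX_IT and MIX_IT none of the 9 genes passed either, where 0% of all genes were called in each. The median log2 fold change of the 9 genes was 0.16 in PTX_IT, 0.08 in NCTD_IT and 0.15 in MIX_IT, beside 0.02, 0.03 and 0.01 for all genes tested. For any difference among the 4 IT groups, Rictor had an adjusted p of 0.221 and Akt2 one of 0.359 (edgeR), where 0.0240% of genes were called and 12.9% had an unadjusted p below 0.05. Among the 4 IP groups every one of the 9 genes had an adjusted p of 0.999, where 0% were called and 3.27% had an unadjusted p below 0.05. MIX_IT differed from NCTD_IT or PTX_IT in none of the 9 genes, where 0.00801% and 0% of all genes were called. At an unadjusted p below 0.05 Rictor differed from NCTD_IT alone, and against PTX_IT no member did, beside 3.75% of genes.

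The rest of the pathway was read from 11 lists with 120 other genes, 114 of which could be tested. In NCTD_IT 3 passed the test, 2.63% of those tested against 1.37% of all genes. The lists were chosen with earlier results of these data known, so these shares are not independent of the data. Fnip2, which encodes a partner of folliculin in the amino acid arm of mTORC1, rose from 33.0 ± 2.79 CPM in CTRL_IT to 73.4 ± 10.6 in NCTD_IT (SD, n = 4 each; log2 fold change 1.15 ± 0.23 SE, adjusted p = 0.0334 by edgeR). Mdm2, the ubiquitin ligase that targets p53 and is a substrate of AKT, rose from 99.6 ± 8.52 to 175 ± 13.2 CPM (log2 fold change 0.81 ± 0.19 SE, adjusted p = 0.0467). Eif4ebp1, which encodes 4E-BP1, the translation repressor that mTORC1 inactivates, fell from 143 ± 35.4 to 78.3 ± 16.4 CPM (log2 fold change -0.86 ± 0.19 SE, adjusted p = 0.0414). In none of the 3, which were named because they passed in this comparison, did the NCTD_IT tumors overlap those of CTRL_IT, as in 16.8% of all genes. With 1 tumor of either group left out, 0 to 5 genes of the lists passed, and 0 without CTRL_IT 9, 11 or 12 or NCTD_IT 17 or 18; with the Xist covariate 0 passed.

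Fnip2 and Eif4ebp1 also led the lists in the other IT groups, which share the CTRL_IT tumors. Eif4ebp1 was at 190, 120, 112 and 148 CPM in CTRL_IT, 77.8, 69.9 and 92.5 in PTX_IT and 72.1, 74.0, 65.5 and 78.5 in MIX_IT, and in every drug-treated tumor it was below the control range. Fnip2 was at 29.4 to 35.5 CPM in CTRL_IT, 38.0 to 69.3 in PTX_IT and 62.4 to 121 in MIX_IT, above the control range in every one. Of all genes 7.96% did not overlap the control in PTX_IT and 9.91% in MIX_IT, and these genes were named for their small p. Their log2 fold changes were -0.83 and 0.75 in PTX_IT (adjusted p = 0.758 and 0.781) and -0.97 and 1.42 in MIX_IT (adjusted p = 0.121 and 0.0832, all by edgeR), none of which passed. The other gene named by its p in PTX_IT was Fbxo32, a FOXO-responsive ubiquitin ligase of muscle atrophy (log2 fold change 1.38, adjusted p = 0.758). Its unadjusted p there, 0.00684 by edgeR, lay below that of Fnip2, 0.00763. In MIX_IT the other gene was Tbc1d4, a Rab regulator phosphorylated by AKT (0.84, adjusted p = 0.160).

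**Figure D4:**
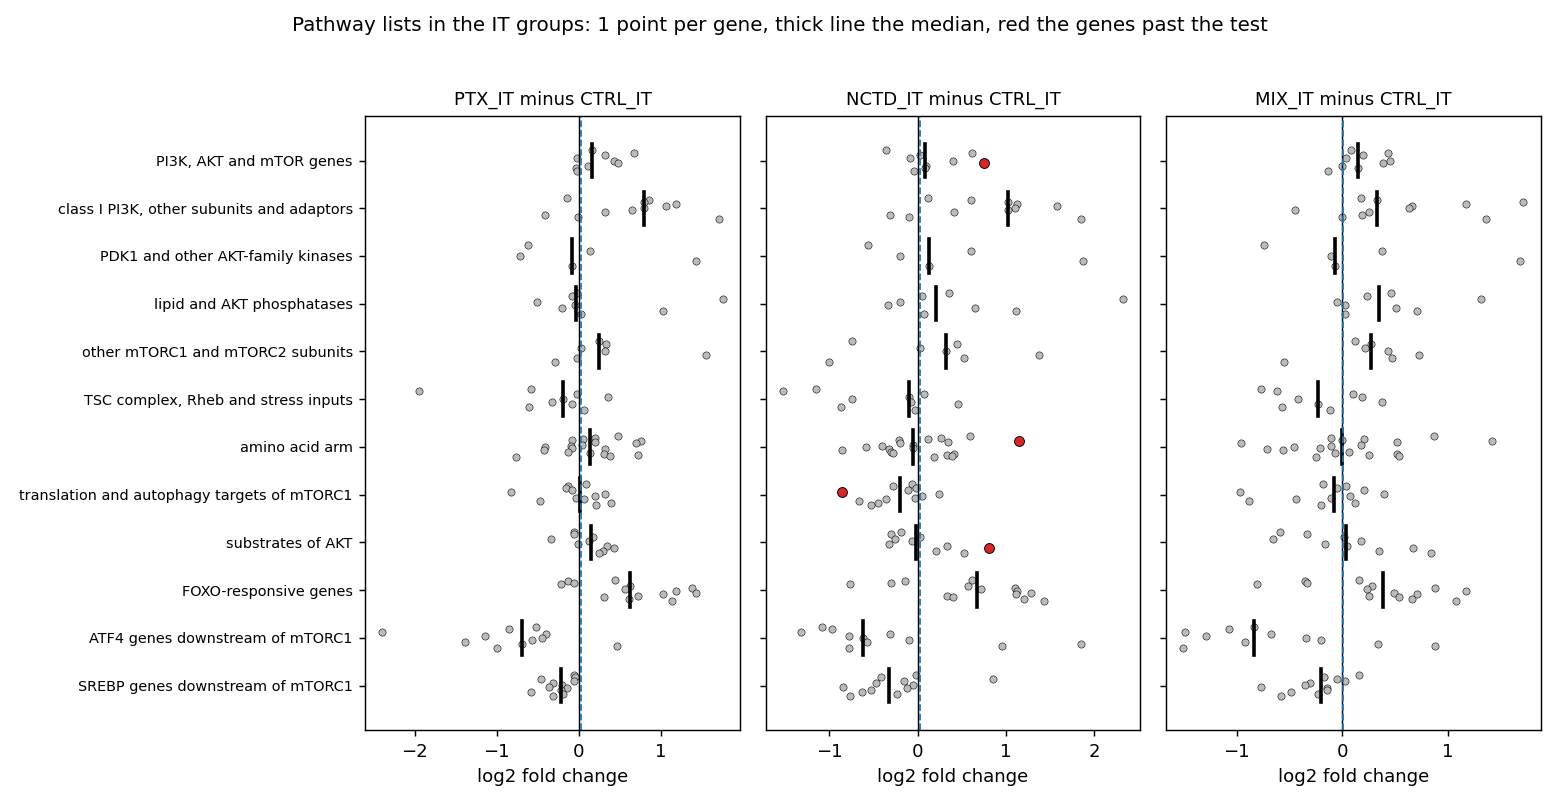
Log2 fold change against CTRL_IT (horizontal axis, scaled apart in each of the 3 panels) of the 9 genes and of each pathway list (rows), with 1 point per gene, the thick line at the list's median, the dashed line at the median of all genes, and red points for genes past the test. Red points are in NCTD_IT alone: Rictor, Fnip2, Mdm2 and Eif4ebp1.

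List by list, no more can be said than the counts. Of 14 FOXO-responsive genes, which rise when AKT no longer restrains FOXO factors, none passed the test in an IT group; in NCTD_IT 7 were higher and 1 lower at an unadjusted p below 0.05 (background 11.6% higher and 10.0% lower), with a median log2 fold change of 0.67 against 0.03 for all genes. The medians of that list were 0.61 in PTX_IT and 0.38 in MIX_IT. Of 11 ATF4 genes of serine and amino acid metabolism downstream of mTORC1, none passed, and the medians were -0.69 in PTX_IT, -0.62 in NCTD_IT and -0.84 in MIX_IT, with 5, 3 and 5 genes lower and 0, 2 and 1 higher at an unadjusted p below 0.05. The shares of all genes at that level were 2.16%, 10.0% and 5.11% lower and 4.18%, 11.6% and 7.88% higher. Of 12 SREBP genes of lipid synthesis none passed, with medians of -0.21, -0.33 and -0.20. The 11 tested genes for other class I PI3K subunits and adaptors had medians of 0.79, 1.02 and 0.33, and none passed. That list holds Pik3cd, the leukocyte PI3K isoform, named here after its values were seen, at a log2 fold change of 1.10 in NCTD_IT (adjusted p = 0.0733 by edgeR), beside the leukocyte marker sums given above. No gene passed in the other lists: medians in PTX_IT, NCTD_IT and MIX_IT were -0.08, 0.13 and -0.07 for the 5 genes of PDK1 and other AKT-family kinases and -0.04, 0.21 and 0.35 for the 8 lipid and AKT phosphatases. They were 0.24, 0.32 and 0.27 for the other 7 mTORC1 and mTORC2 subunits and -0.20, -0.10 and -0.23 for the 9 genes of the TSC complex, Rheb and stress inputs. The lists that hold Fnip2, Eif4ebp1 and Mdm2 (19, 12 and 10 genes) had medians of -0.05, -0.20 and -0.02 in NCTD_IT.

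By the IP route no gene of the lists passed (edgeR). At an unadjusted p below 0.05 stood 3, 3 and 5 of 114 in PTX_IP, NCTD_IP and MIX_IP (2.63%, 2.63% and 4.39%). Of all genes 3.00%, 1.92% and 1.39% were higher and 2.30%, 1.67% and 1.55% lower at that level. The list genes with the smallest p were Sesn1, a leucine-sensing inhibitor of mTORC1, with log2 fold changes of -0.90 in PTX_IP and -0.94 in MIX_IP, and Lamtor4, a subunit of the lysosomal Ragulator, with 0.52 in NCTD_IP. Adjusted p were 0.906, 0.999 and 0.999. Next by p came Tbc1d7 (0.88) and Prkaa2 (-0.88) in PTX_IP, Shmt2 (0.86) and Inpp4a (-1.24) in NCTD_IP, and Txnip (-1.15) and Tbc1d4 (-0.57) in MIX_IP, none of which passed. Tbc1d4 was thus lower in MIX_IP and higher in MIX_IT relative to the control of its route, neither past the test.

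Across the 23 tumors, each gene had its own nearest neighbors in log2 CPM, given as a description of tumors that share libraries, depth and cell makeup. The closest to Rictor were Ino80d (Pearson r = 0.92), Ccnt2 (0.89) and Krit1 (0.89), and the closest to Akt2 were Atp6ap1 (0.92), Brd2 (0.91) and Tpra1 (0.90). After group means were subtracted those of Rictor were 0.73, 0.69 and 0.82, and those of Akt2 0.91, 0.85 and 0.96. For Tsc2 the nearest were Mtg2 (0.80), Rnf113a1 (0.77) and Rbpms (0.76), for Pik3ca Rybp (0.78), Creb3l2 (0.73) and Erg (0.72), and for Pik3cb Prcp (0.77), Rhob (0.76) and Mtmr9 (0.76). Akt1 lay nearest to Nme6 (0.75), Ftsj1 (0.73) and Zfp119a (0.71), Mtor to Ankrd17 (0.68), Ubr3 (0.64) and Slc6a17 (0.61), and Rps6kb1 to Ppp1cc (0.74), Mnat1 (0.74) and Cdca5 (0.73). Rptor lay nearest to an unnamed microRNA gene (0.83), Mat2a (0.77) and the pseudogene Rpl7a-ps5 (0.77). Between the 9 genes themselves the strongest relation over all tumors was that of Pik3cb with Akt2 (r = 0.66, and 0.58 within groups), followed by Tsc2 with Rps6kb1 (0.56, and 0.58 within groups) and Akt2 with Rictor (0.51, and 0.19 within groups). Within groups the strongest was that of Pik3cb with Rps6kb1 (r = -0.67, and -0.29 over all tumors), and Mtor and Rictor were also opposed (-0.56, and -0.17 over all tumors). Akt1 and Akt2 were weakly opposed (r = -0.29), and Rptor and Rictor hardly related (0.17).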

How the data were processed

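PolyA RNA of 23 tumors was measured. Per the labels and the study's methods, the authors made 3′ mRNA libraries (Collibri), checked and trimmed the paired reads with FastQC and Trimmomatic, aligned them to GRCm39 with STAR 2.7.11b and deposited raw counts per gene from STAR; strand setting, multi-mapping and molecular identifiers are not given in the sources used here. Replicates are separate tumors.

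From the deposited counts, the IP and IT tumors were fitted apart with edgeR 4.0.16 (quasi-likelihood test, TMM, filterByExpr with a minimum count of 10, Benjamini-Hochberg over all genes, two-sided, threshold 0.05), with 12424 and 12480 genes tested. CPM use TMM over all 23 tumors. Ratios used exact permutation tests after adding 2 to each count. DESeq2 1.42.0, other scalings, filters and samples were alternatives. The scripts were tested on simulated data. The members and lists were chosen with earlier results of these data known. Named were all 9 members, list genes past the test (otherwise the 3 with the smallest p per comparison) and the 3 genes nearest to each member by Pearson's r. Intervals at 0 counts cover counting error only. Coordinates of the genes are those of the count table; promoters come from the GENCODE vM39 starts on GRCm39.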

Additional observations from a re-analysis of the deposited data

Results flagged for a closer look

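The effect of a drug on Rictor had opposite directions by the IT and the IP route for PTX, where the route difference was 0.86 on the log2 scale, and for NCTD, where it was 1.13. These 2 effects were flagged because all IT tumors of these groups lay above CTRL_IT and all IP tumors below CTRL_IP. That separation is the rule of the flag and no separate result. By IP, with 2 tumors a group, 31.8% of all genes did not overlap the control in PTX_IP and 34.3% in NCTD_IP. By IT these shares were 7.96% in PTX_IT and 16.8% in NCTD_IT. The share of all genes that meet the rule in both routes was not counted. Tested over all 23 tumors with edgeR, the route differences had adjusted p of 0.892 and 0.271, so neither passed. With DESeq2 on all 23 tumors that for NCTD had an adjusted p of 0.0300, where the share of all genes called was not counted. Route cannot be told apart from batch and solvent. Of 27 sets of 4 tumors (9 genes in CTRL_IT, NCTD_IT and MIX_IT), 0 held a tumor past the test for a single outlying value, where chance gives about 1 in 20.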

How the results depend on the processing

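No paired analysis was possible because the tumors are numbered through without repeats, so no groups share a replicate number. The count of called members stayed at 0 in every IP comparison and in MIX_IT under all alternatives. In NCTD_IT, where Rictor alone was called, DESeq2 and edgeR on these groups alone each called 2 members, the Xist covariate left 0, and leaving out 1 tumor gave 0 to 1. A further fit left out the 3 IT tumors that stand apart (PTX_IT 16, NCTD_IT 18 and MIX_IT 23), chosen after seeing the data. There PTX_IT had 1 called member, Akt2, at an adjusted p of 0.0483 (edgeR), where 58 of 12640 genes were called. PTX_IT 16 was the tumor of its group with low Akt2, at 40.6 CPM against 83.1 and 83.8. The effect of NCTD differed between routes for 1 member with DESeq2, and the share of all genes called in that contrast was not counted. The cause of these moves was not tested. Among list genes NCTD_IT had 22 called with DESeq2, 22 without the filter, 18 with these groups alone, 12 with all 23 tumors in a model, 0 with Xist and 0 to 5 with 1 tumor left out; MIX_IT had 7 with DESeq2, 15 without the filter, 1 with all 23 tumors, 1 with Xist and 0 to 1 with 1 tumor left out, PTX_IT 1 with DESeq2 and 8 without the filter, and MIX_IP 1 with each. Over all genes NCTD_IT had 171 of 12480 called in the main fit, 1380 of 13016 with DESeq2 and 946 of 11263 with these groups alone. It had 777 of 13395 with all 23 tumors, 1190 of 26878 unfiltered, 0 with Xist, and 0 to 191 with 1 tumor left out. MIX_IT had 0 in the main fit, 230 of 11969 with DESeq2 and 364 of 26878 unfiltered. It had 9 of 13395 with all 23 tumors and 9 of 12480 with Xist. PTX_IT had 15 of 15487 with DESeq2 and 222 of 26878 unfiltered, and MIX_IP 12 of 8711 and 51 of 23653. The IT ratio differences without 1 tumor ran from -0.75 to -0.13 (Pik3ca/Pik3cb) and from -1.03 to -0.12 (Akt1/Akt2) in PTX_IT. Of 747 recomputed fold changes of members, 69 had the other sign, 6 of them with a size above 0.2, and 0 while called. No scaling moved the median of all genes by over 0.1. Depth did not limit the detection of any member, while 2 tumors a group limit the IP comparisons.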
